A study of Mus musculus with 8 samples.

Results

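The genes described here encode the proteins of the mitochondrial ribosome. Members were all probe sets of the array whose annotation gives a single gene symbol that begins with Mrpl or Mrps followed by a number, a rule that uses no measured value. It took 156 of 45037 probe sets and 76 of 18193 genes, of which 47 are named for the large subunit and 29 for the small subunit. All 76 genes were bright enough to be tested, among 12986 genes in all. Of the genes, 34 had 1 probe set and 42 had several, up to 8 for Mrpl15. Where there were several, the gene was read from one of those whose estimated level before centring, rounded to a whole unit, was highest. For 13 genes this was not the probe set of highest unrounded level.

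The cells were 32Dcl3, a line of mouse myeloid progenitors. It is kept growing with the cytokine interleukin-3 (IL-3), and granulocyte colony-stimulating factor, G-CSF, turns it toward the neutrophil fate. One culture was transduced with the retroviral vector pMYs-IG (mock) and another with pMYs-FLAG-ASXL1-MT-IG, which adds a tagged mutant of the chromatin regulator ASXL1. For either culture there was 1 Affymetrix array from IL-3 and 1 each from 2, 6 and 24 h of G-CSF, 8 arrays in all. The labels do not say whether the cells were a clone or a pool, how much ASXL1-MT they made, whether the ASXL1 sequence was human or mouse, or whether IL-3 was removed when G-CSF was added.

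Each probe set's deposited values are read as log2 levels less their own median over the 8 arrays, so a level of 0 is a gene's own middle value and levels of different genes cannot be compared. The base of 2 was assumed, and with a natural log each difference would be 1.44 times larger. Changes are log2 differences ± the standard error of a limma fit over 8 arrays, in which the 2 cultures stand in for replicates of a time point and the 4 time points for replicates of a vector. No condition was repeated, nothing in the labels names separate cultures as replicates, and the number of arrays limits the precision. P-values are limma's, two-sided and adjusted by Benjamini-Hochberg over all 12986 genes, and a call is an adjusted p under 0.05. Of 12 markers of myeloid progenitors, 9 (among them Mpo, Elane and Csf3r) had an estimated level of 8 or more. The progenitor markers Kit, Cd34 and Cebpa did not reach it. None of 3 erythroid and 3 lymphoid markers on the array reached that level. It was reached by 2 of 4 megakaryocyte (Pf4 and Itga2b), 2 of 4 macrophage (Adgre1 and Csf1r) and 1 of 4 fibroblast markers (Col1a2). The part of these cell types in the results was not tested.

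Mitochondrial ribosomes translate the few messenger RNAs of the mitochondrial genome, which encode core subunits of the respiratory chain and the ATP synthase. Their RNA is made inside the organelle, while every protein of the particle is encoded in the nucleus, translated on cytosolic ribosomes and imported. Many of the proteins have a counterpart in bacterial ribosomes, and others were gained by the mitochondrial particle. MYC, NRF1, GABP and YY1 are transcription factors known to bind the promoters of nuclear genes for mitochondrial proteins.

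Because the members moved together, the start of a few promoters is shown, from RefSeq on GRCm38.p6, 5′ to 3′ on the strand of the gene. Promoter entries were found for 67 of the 76 genes, with windows from 250 bases before to 50 after each annotated start site. In some genes, such as Mrpl36, that site lies inside the annotated gene. The motifs named here were searched on both strands, and matches of different motifs may overlap. The letters AAGATGGCG, the core of the YY1 motif, occurred in 8 of 67 members (11.9%) and in 348 of 10445 promoters of all genes (3.33%). These are their sites with flanking bases, the motif on either strand in capitals.
Mrpl35, chr6:71823742-71823771, minus strand: ggcaggctgcAAGATGGCGgcttccatctt
Mrpl36, chr13:73330968-73330997, plus strand: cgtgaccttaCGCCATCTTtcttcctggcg
Mrpl37, chr4:107066821-107066850, minus strand: tgcacgggcaAAGATGGCGgcgtccaggta
Mrpl42, chr10:95501903-95501932, minus strand: agattgaagcAAGATGGCGagcgcgcggtg
Mrps11, chr7:78783013-78783042, plus strand: ctacgggcgcCGCCATCTTtctgtcttccc
Mrps18a, chr17:46111005-46111034, plus strand: ggtgcgttccAAGATGGCGgccctcagggc
Mrps24, chr11:5707652-5707681, minus strand: cgggtcgcgccggcccAAGATGGCGtggtc
Mrps27, chr13:99344790-99344819, plus strand: ggtgcgctccAAGATGGCGgctcccatggt
In 6 of them the motif lay after the annotated start site, and in Mrpl36 and Mrps11 before it. All 8 genes fell at 24 h, by 0.60 to 1.03, as did 35 of the 59 members without the letters.

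The 100 bases before the start are shown for the gene with the largest fall (Mrps18b), for the stalk protein Mrpl12, for a gene low from 6 h (Mrpl17), for one called at 24 h and not at 6 h (Mrps22) and for the largest rise (Mrpl52). Capitals mark the motifs found.
Mrps18b, chr17:35916441-35916540, minus strand, GC box on the opposite strand: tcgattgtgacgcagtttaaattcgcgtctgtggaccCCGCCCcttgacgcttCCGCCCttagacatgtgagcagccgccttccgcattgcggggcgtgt
Mrpl12, chr11:120484537-120484636, plus strand, NRF1 motif on the opposite strand: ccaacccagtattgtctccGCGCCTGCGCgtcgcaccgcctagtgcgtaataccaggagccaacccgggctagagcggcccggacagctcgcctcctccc
Mrpl17, chr7:105811088-105811187, minus strand, GC box on the opposite strand and NRF1 motif: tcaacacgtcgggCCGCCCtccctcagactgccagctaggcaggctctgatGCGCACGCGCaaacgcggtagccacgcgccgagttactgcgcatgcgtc
Mrps22, chr9:98601680-98601779, minus strand, ETS motif: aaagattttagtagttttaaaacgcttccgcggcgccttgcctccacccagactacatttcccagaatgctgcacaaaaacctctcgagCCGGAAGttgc
Mrpl52, chr14:54426809-54426908, plus strand, ETS motif on the opposite strand: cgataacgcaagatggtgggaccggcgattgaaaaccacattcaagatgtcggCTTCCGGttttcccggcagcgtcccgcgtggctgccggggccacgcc
Over the whole promoter windows, the ETS letters CCGGAAG, which GABP can bind, occurred in 25 of 67 members (37.3%) and 18.9% of all promoters, and the NRF1 motif (GCGCA, any base, then GCGC) in 12 members (17.9%) and 10.8% of all. The GC box GGGCGG occurred in 34 members (50.7%) and 63.9% of all, and the E-box CACGTG, to which MYC and MAX bind, in 5 members (7.46%) and 11.2% of all. Falls were called with and without the letters: in 14 of 25 members with the ETS letters and 29 of 42 without, in 6 of 12 with the NRF1 motif and 37 of 55 without, in 4 of 5 with the E-box and 39 of 62 without, and in 18 of 34 with the GC box (median -0.51) and 25 of 33 without (median -0.77). These matches are descriptions of letters, and binding was not measured.

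After 24 h in G-CSF the transcripts of the mitochondrial ribosome were lower than in IL-3 across most of the particle. The largest falls were those of Mrps18b, Mrpl12 and Mrpl47, and Mrpl52 and Mrpl24 rose. Of the 76 members, 51 (67.1%) fell and 2 rose, against 11.8% lower and 14.6% higher among all genes tested. The members were all well measured, so the 7770 brighter genes are the closer background, a choice made after seeing the data. These are the genes whose second-highest array reached the 70th percentile of the estimated level. Of these, 18.2% were lower and 19.6% higher. The median change of the members was -0.65, a 1.57-fold fall, with a median of 0.09 over all genes and 0.03 over the brighter ones. The interquartile range of the members' changes ran from -0.82 to -0.41, and 71 of 76 were below 0. The array gives RNA as a share of the sample, so a lower level in every cell and a loss of cells with a high level cannot be told apart.

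The falls were present in both cultures. From IL-3 to 24 h the median change was -0.66 in mock and -0.63 in ASXL1-MT, and 71 members were below IL-3 in each. In 69 the level was below IL-3 in both, against 32.9% of all genes and 41.1% of the brighter ones. In 57 the 2 arrays taken at 24 h were the lowest of the 8, which held for 13.7% of all genes and 20.3% of the brighter ones. The calls need both IL-3 and both 24 h arrays: without any 1 of these 4, no member and no gene of any kind passed, while 47 to 53 members were lower at an unadjusted p under 0.05 and the smallest adjusted p of a member was 0.0591 to 0.0662. Without either 2 h array 36 members fell, and without either 6 h array 38.

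**Figure D1:**
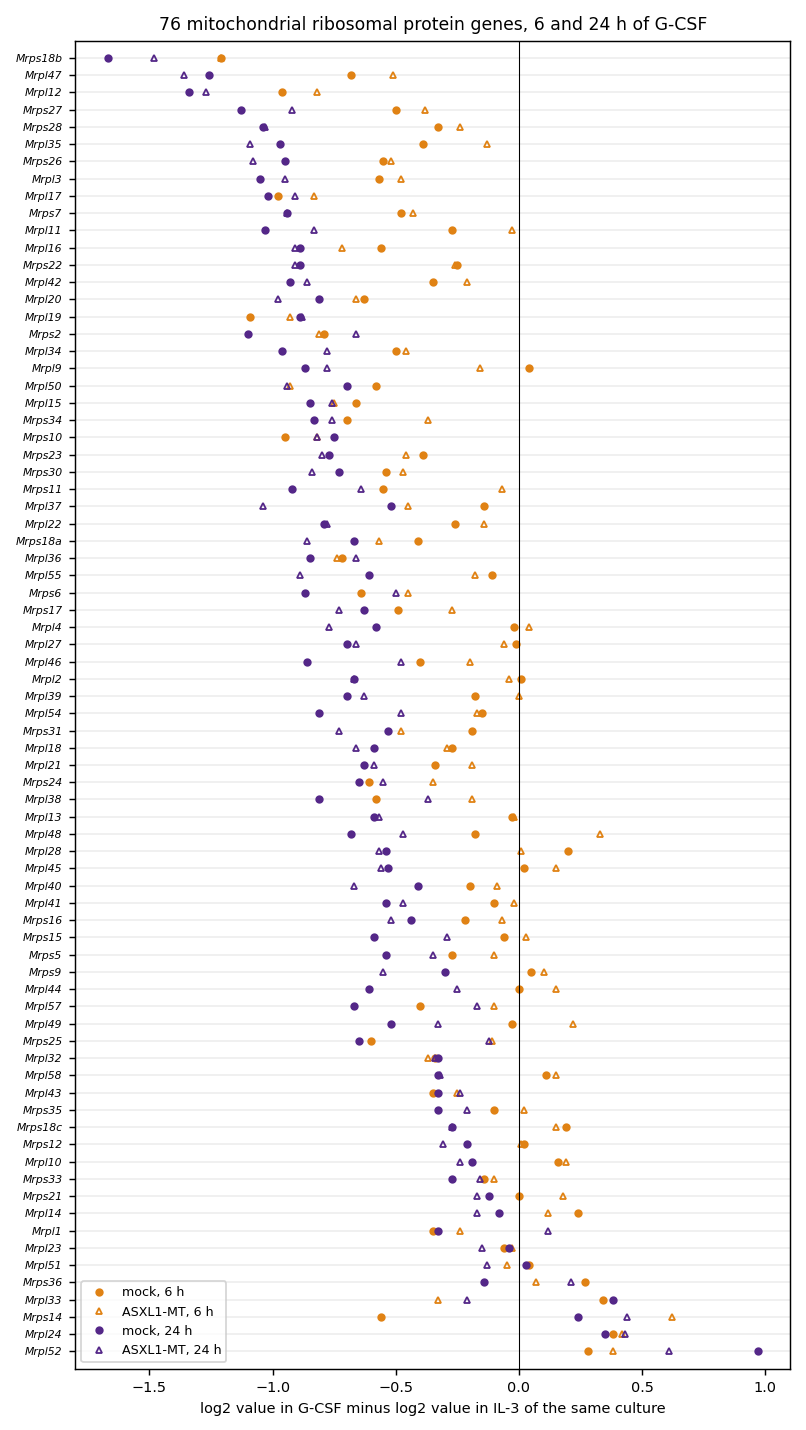
Log2 value in G-CSF minus the log2 value in IL-3 of the same culture (x axis) for the 76 genes (y axis, ordered by their change at 24 h), with mock as filled circles and ASXL1-MT as open triangles, 6 h in orange and 24 h in purple, 1 array per point. The purple points of 69 genes lie left of 0 in both cultures, and Mrpl52 and Mrpl24 lie at the bottom, right of 0.

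**Figure D2:**
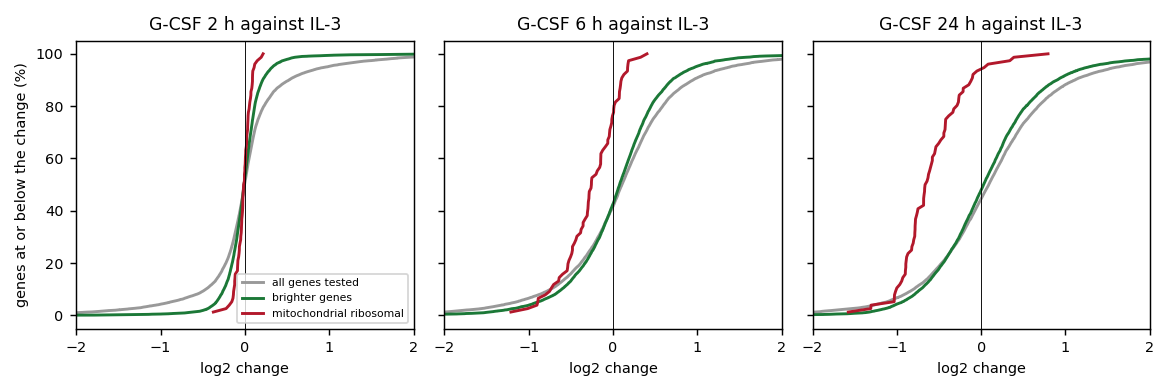
Share of genes (y axis, %) at or below a given log2 change (x axis, from -2 to 2) after 2, 6 and 24 h of G-CSF against IL-3, for all 12986 genes tested (grey), the 7770 brighter genes (green) and the 76 mitochondrial ribosomal protein genes (red). The red curve is centred near 0 at 2 h (median -0.01), at -0.26 at 6 h and at -0.65 at 24 h.

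The largest fall was that of Mrps18b, one of a set of paralogues related to the bacterial small subunit protein S18. Its levels in mock were 0.58 in IL-3, 0.53 at 2 h, -0.62 at 6 h and -1.08 at 24 h, and in ASXL1-MT they were 0.68, 0.63, -0.53 and -0.80. In each culture the 2 early arrays were thus high and the 2 late arrays low, without overlap. The change was -1.21 ± 0.09 at 6 h (adjusted p = 0.0124) and -1.58 ± 0.09 at 24 h (adjusted p = 0.00625), which left 33.6% of the level in IL-3. Its paralogues changed by less, with a fall of 0.77 ± 0.09 for Mrps18a (adjusted p = 0.0122) and a value of -0.27 ± 0.08 for Mrps18c (adjusted p = 0.0770). Mrps18c stood at -0.01 in both cultures in IL-3 and at -0.27 and -0.28 at 24 h. The product of Mrps18a, like that of Mrps30 (-0.78 ± 0.11, adjusted p = 0.0156), is known to sit in the large subunit in spite of its name.

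The stalk of the large subunit recruits the factors that drive translation. Mrpl12, its counterpart of bacterial L7/L12, stood at 0.39, 0.39, -0.56 and -0.95 in mock from IL-3 to 24 h, and at 0.43, 0.49, -0.39 and -0.84 in ASXL1-MT. It fell by 0.89 ± 0.08 at 6 h (adjusted p = 0.0133) and by 1.31 ± 0.08 at 24 h (adjusted p = 0.00625), to 40.5% of IL-3. Mrpl11, of the stalk base, had a value of -0.15 ± 0.10 at 6 h and fell by 0.93 ± 0.10 at 24 h (adjusted p = 0.0107). For Mrpl10, which anchors the stalk, the change at 24 h was -0.21 ± 0.08 and was not called (adjusted p = 0.126).

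Around the centre where peptide bonds form, Mrpl3 fell by 1.00 ± 0.14 (adjusted p = 0.0160), Mrpl16 by 0.90 ± 0.09, Mrpl27 by 0.68 ± 0.10 and Mrpl2 by 0.67 ± 0.08 at 24 h. Each of these was called. The proteins around the tunnel through which the new chain leaves the ribosome were mixed. Mrpl47 fell by 1.31 ± 0.10 (adjusted p = 0.00723), Mrpl17 by 0.96 ± 0.10, Mrpl22 by 0.78 ± 0.11, Mrpl39 by 0.66 ± 0.09 and Mrpl45, which ties the ribosome to the inner membrane, by 0.54 ± 0.09. Mrpl23, a central protein of the tunnel exit, gave -0.10 ± 0.08 (adjusted p = 0.462), with all 8 of its values between -0.13 and 0.04. Its neighbour Mrpl24 rose by 0.39 ± 0.08 (adjusted p = 0.0347). Mrpl24 stood at -0.18, -0.17, 0.20 and 0.17 in mock and at -0.21, -0.22, 0.21 and 0.22 in ASXL1-MT, a step between 2 and 6 h in each. This gene overlaps Rrnad1, whose own change at 24 h was 0.84. Probe sequences were not at hand, so which of these genes a probe set reads was not checked. The rise of Mrpl24 was not called without the filter, after quantile normalization or when any 1 array was left out. It also missed the threshold with the mean of probe sets (0.39, adjusted p = 0.0552 in limma). Mrpl24 itself has 1 probe set, so its value there was the same.

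In the small subunit, Mrps28 fell by 1.03 ± 0.09 (adjusted p = 0.00852), Mrps27, a protein of the pentatricopeptide repeat family, by 1.03 ± 0.09 (adjusted p = 0.00846) and Mrps26, which bacteria lack, by 1.02 ± 0.10 (adjusted p = 0.00958). Mrps7, of the head of the subunit, fell by 0.94 ± 0.08 and Mrps22, another mitochondrial addition, by 0.90 ± 0.08. Mrps12, the protein of the decoding centre, gave -0.26 ± 0.08 (adjusted p = 0.0847). Its levels in mock were 0.01, -0.01, 0.03 and -0.20 and in ASXL1-MT 0.06, -0.02, 0.06 and -0.25, so that the 2 arrays at 24 h were the lowest. By name, 19 of 29 small subunit genes fell and none rose (median -0.68), and 32 of 47 large subunit genes fell and 2 rose (median -0.64). Among 47 members with a bacterial counterpart 34 fell and 1 rose (median -0.68), and among the 29 without one 17 fell and 1 rose (median -0.58). The difference between these groups was not tested.

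Mrpl35 shows how far a value can rest on the choice of probe set. It fell by 1.03 ± 0.14 (adjusted p = 0.0154), with 0.10, 0.12, -0.29 and -0.88 in mock and 0.14, -0.02, 0.02 and -0.94 in ASXL1-MT, on the probe set with an estimated level of 11.8. The other probe sets, at estimated levels of 6.1 and 2.5, gave 0.01 and -0.39, and the mean over all 3 was -0.47 and not called (adjusted p = 0.655). Such estimates place a probe set in a broad band of level and are not measured intensities. For Mrpl47 the mean over 3 probe sets was -0.51 and not called, and for Mrpl17, of whose probe sets 1 lay below 0, it was 0.03. Over the members, 103 of 111 probe sets at a level of 8 or more were below 0 at 24 h (median -0.66), against 24 of 45 dimmer ones (median -0.08). Of 24 genes with several probe sets at that level, all had the same sign in 22, and Mrpl28 and Mrps14 did not. With the mean of all probe sets, 35 members fell and 1 rose. Of the 53 members called as reported, 33 were then called in the same direction, and 4 turned to above 0: Mrpl17, Mrpl42 (0.19), Mrpl21 (0.52) and Mrpl54 (0.24). With the probe set of highest unrounded level, a choice tried after seeing the data, 57 fell and 2 rose, and all 53 kept their call. The unrounded level of a bright probe set tended to be higher where its lowest array was lower. The choice thus favoured probe sets with deeper falls, and the larger count cannot be told apart from the selection.

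The 2 members that rose were exceptions in both cultures. Mrpl52, which bacterial ribosomes lack, stood at -0.19, -0.13, 0.09 and 0.79 in mock and at -0.11, -0.09, 0.27 and 0.51 in ASXL1-MT. It rose by 0.79 ± 0.14 at 24 h (adjusted p = 0.0260), to 173.3% of IL-3, and its 4 probe sets gave 0.79, 0.71, 0.66 and 1.49. The rise was not called without the filter on dim genes or when any 1 array was left out. The remaining 23 members were not called at 24 h, with values from -0.58 for Mrpl48 to 0.34 ± 0.38 for Mrps14. Another bright probe set of Mrps14 gave -0.22. The values nearest 0 were those of Mrps36 (0.03 ± 0.16), which later work assigned to an enzyme of the citric acid cycle instead of the ribosome, Mrpl51 (-0.05 ± 0.08) and Mrpl33 (0.08 ± 0.22). Mrpl58, a hydrolase that frees stalled chains and is built into the large subunit, gave -0.32 ± 0.09 (adjusted p = 0.0686). Of these 23, 6 fell when read from the probe set of highest unrounded level: Mrpl1 (-0.71 ± 0.15 in place of -0.10 ± 0.15), Mrps25 (-0.66 in place of -0.38), Mrpl49 (-0.64 in place of -0.42), Mrps9 (-0.62 in place of -0.43), Mrps15 (-0.55 in place of -0.44) and Mrpl44 (-0.51 in place of -0.43). As described above, this choice favoured probe sets with deeper falls.

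At 6 h the change had begun in part of the members. Of the 76, 20 fell (26.3%) and 1 rose, against 7.23% lower and 9.7% higher among all genes and 11% lower and 13.2% higher among the brighter ones. The median change was -0.26, with 0.11 over all genes. In 52 members the level was below IL-3 in both cultures, against 29.3% of all genes and 35.1% of the brighter ones, and the per-culture medians were -0.27 in mock and -0.18 in ASXL1-MT. These calls are less firm than those at 24 h: without either IL-3 or either 6 h array none was left, without a 2 h array 1, and without a 24 h array 3, with 20 to 28 members lower at an unadjusted p under 0.05. The rise was that of Mrpl24 (0.40 ± 0.08, adjusted p = 0.0441), and it was called as well with the stricter filter and with the unrounded level, but under none of the other settings run, the loss of any 1 array included.

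At 2 h no member was called. The median change of the members was -0.01, with 43 below 0, and no member had an unadjusted p under 0.05, against 8.02% of all genes. Over all genes 0.0077% were called lower and 0% higher. The level was below IL-3 in both cultures in 25 members, against 28.3% of all genes and 30.9% of the brighter ones. The lowest values at 2 h were those of Mrps2 (-0.37 ± 0.16) and Mrps31 (-0.22 ± 0.10), and the highest those of Mrps14 (0.22 ± 0.38) and Mrpl33 (0.19 ± 0.22). Another bright probe set of Mrps14 gave 0.06 at 2 h.

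All 20 members that were lower at 6 h were also lower at 24 h, and another 31 were called at 24 h alone. The test of 24 h against 6 h called 10 members lower and none higher, against 2.5% lower and 3% higher among all genes and 3.66% and 4.38% among the brighter ones, with a median change of -0.35 between these times. Of these 10 members, Mrpl47 was also called at 6 h. Mrpl11 (-0.78 ± 0.10, adjusted p = 0.0418), Mrpl9 (-0.76 ± 0.11, adjusted p = 0.0440) and Mrps28 (-0.75 ± 0.09, adjusted p = 0.0409) changed most between the 2 times, and the others were Mrpl28, Mrpl2, Mrpl27, Mrps22, Mrpl45 and Mrpl42. Mrpl9 stood at -0.02, 0.10, 0.02 and -0.89 in mock and at 0.03, 0.13, -0.13 and -0.74 in ASXL1-MT, level until 6 h and low on both 24 h arrays. None of the 10 was called between 6 and 24 h when any 1 array was left out.

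A group of 8 members, picked after their values were seen, was called at both times with a change at 24 h within 0.15 of that at 6 h: Mrpl19, Mrpl17, Mrps10, Mrps2, Mrpl50, Mrpl36, Mrpl15 and Mrps24. Their changes at 6 h ran from -1.01 to -0.48 and those at 24 h from -0.96 to -0.60. Mrpl19 fell by 1.01 ± 0.09 at 6 h (adjusted p = 0.0128), with 0.48, 0.33, -0.61 and -0.41 in mock and 0.55, 0.39, -0.38 and -0.33 in ASXL1-MT. Mrpl17, whose promoter is shown above, fell by 0.90 ± 0.10 at 6 h (adjusted p = 0.0167), with 0.62, 0.53, -0.36 and -0.41 in mock and 0.50, 0.32, -0.32 and -0.40 in ASXL1-MT. In both genes the levels at 6 and 24 h were close to each other and apart from those in IL-3 and at 2 h.

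**Figure D3:**
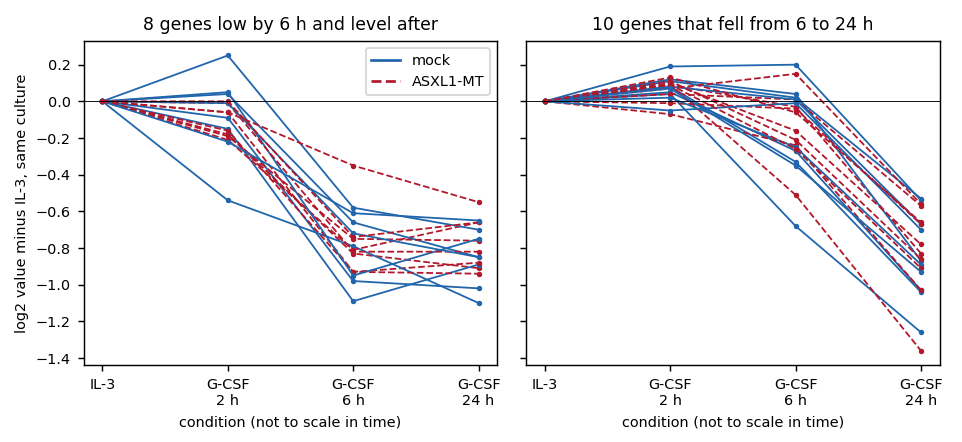
Log2 value minus that in IL-3 of the same culture (y axis) in IL-3 and after 2, 6 and 24 h of G-CSF (x axis, not to scale), 1 line per gene and culture, mock as solid blue lines and ASXL1-MT as dashed red lines. Left, the 8 genes with changes of -1.01 to -0.48 at 6 h and little change after; right, the 10 genes that fell from 6 to 24 h, by 0.61 to 0.78; both groups were formed from these values.

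Between the vectors no member and no gene of any kind was called, neither higher nor lower, so that the share is 0% on each side. At an unadjusted p under 0.05 there was no member and 6.37% of all genes. The median difference ASXL1-MT minus mock over the members was 0.04, and by time it was 0.01 in IL-3, -0.01 at 2 h, 0.07 at 6 h and 0.04 at 24 h. Members higher in ASXL1-MT at all 4 times numbered 13, against 8.34% of all genes and 8.57% of the brighter ones, and 2 were lower at all 4, against 8.64% and 10.7%. The highest values were those of Mrps25 (0.20 ± 0.12, adjusted p = 0.791) and Mrpl57 (0.16 ± 0.10, adjusted p = 0.804), and the lowest those of Mrps31 (-0.19 ± 0.07, adjusted p = 0.785) and Mrpl48 (-0.13 ± 0.11, adjusted p = 0.826). A p that misses the threshold does not show that the cultures were alike.

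The test of whether the vector difference at 24 h departs from that at the other times called no gene (0% each way), with no member and 5.81% of all genes at an unadjusted p under 0.05. The extremes were Mrps36 (0.42), Mrpl46 (0.36), Mrpl52 (-0.38) and Mrpl37 (-0.37). Across the 76 members the changes at 24 h in the 2 cultures had a Pearson correlation of 0.85, against 0.82 over the brighter genes and 0.37 over all genes. These are correlations across genes, which are not independent replicates, and all changes of a culture share its IL-3 array. The changes of the 2 cultures differed by a median of 0.11 in size, and most for Mrpl33, by 0.59.

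**Figure D4:**
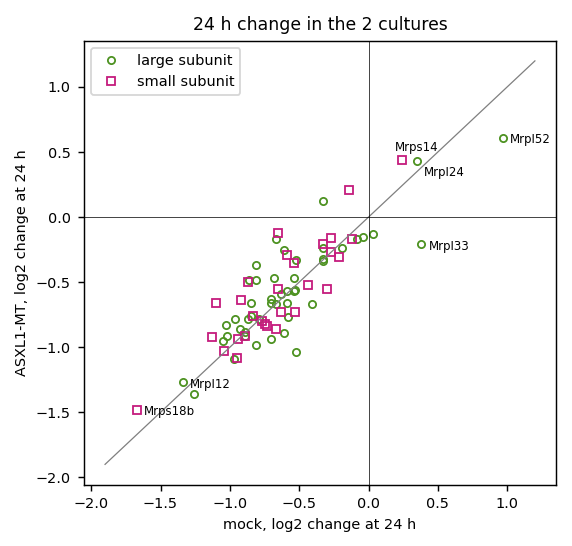
Log2 change from IL-3 to 24 h of G-CSF in mock (x axis) and in ASXL1-MT (y axis), 1 array on each side of a change, with circles for 47 large and squares for 29 small subunit genes; the grey line marks equal changes. Most points lie below and left of 0 near the line, Mrps18b at the lower left and Mrpl52 at the upper right, and Mrpl33 is the gene farthest from the line.

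Other genes of mitochondrial translation and import were read from lists of known members. At 24 h, 11.8% of all genes tested were lower and 14.6% higher, and 18.2% and 19.6% of the brighter ones. Among ribosomal proteins whose names fall outside the rule, 3 of 4 tested fell at 24 h: Gadd45gip1, a large subunit protein, by 1.38 ± 0.12 (adjusted p = 0.00764), Ptcd3, a small subunit protein, by 0.90 ± 0.10 (adjusted p = 0.0114), and Chchd1 by 0.72 ± 0.13 (adjusted p = 0.0266). The fourth, the GTP-binding small subunit protein Dap3, gave -0.12 ± 0.13 (adjusted p = 0.548). Of 13 translation factors and messenger RNA partners 7 fell and none rose (median -0.54), among them the elongation factor Tufm (-1.02 ± 0.14, adjusted p = 0.0156), its exchange factor Tsfm (-0.98 ± 0.12, adjusted p = 0.0123) and Gfm1 (-0.68 ± 0.13). Of 30 genes of ribosome assembly and ribosomal RNA modification 9 fell and 1 rose (median -0.45). C1qbp fell by 1.18 ± 0.12 (adjusted p = 0.00915), while the chaperone of small subunit RNA Eral1 rose by 0.64 ± 0.08 (adjusted p = 0.0133), a rise not called with the mean of its probe sets (0.04) and turned to a called fall on the one of highest unrounded level (-0.41).

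Of 24 import genes 19 fell and none rose at 24 h (median -0.73), and 10 of the 24 fell at 6 h. The inner membrane translocase subunit Timm17a fell by 1.32 ± 0.08 at 24 h (adjusted p = 0.00625). The list also takes in the cochaperonin Hspe1, which serves protein folding after import. Hspe1 fell by 1.52 ± 0.19 at 24 h (adjusted p = 0.0126). Of 19 mitochondrial tRNA synthetases and related enzymes 4 fell (21.1%, median -0.40), near the 18.2% of the brighter genes. The largest fall was that of the tyrosine enzyme Yars2 with -1.23 ± 0.10 (adjusted p = 0.00739). Of 13 genes of mitochondrial DNA upkeep and transcription 1 fell and 1 rose (7.69% each), below the shares of all genes. Ssbp1, which coats single-stranded DNA, fell by 0.80 ± 0.09 (adjusted p = 0.0105), and the polymerase subunit Polg2 rose by 0.43 ± 0.09 (adjusted p = 0.0338). The RNA polymerase Polrmt (-0.38 ± 0.11, adjusted p = 0.0748) and the DNA-packing factor Tfam (-0.34 ± 0.09, adjusted p = 0.0593) were not called.

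The nuclear-encoded subunits of oxidative phosphorylation were called mostly at 24 h. At 6 h none of 78 fell and 1 rose, with a median of 0.12, and at 24 h 24 fell and 4 rose, with a median of -0.25. Cytochrome c1, Cyc1, fell by 0.95 ± 0.09 at 24 h (adjusted p = 0.00854). Of 42 cytosolic ribosomal proteins 5 (11.9%) fell and none rose at 24 h, with a median of 0.19, against 11.8% of all genes lower. At 6 h 5 of them fell (11.9%), with a median of 0.12, against 7.23% of all genes and 11% of the brighter ones. The differences between these lists and the members were not tested.

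**Figure D5:**
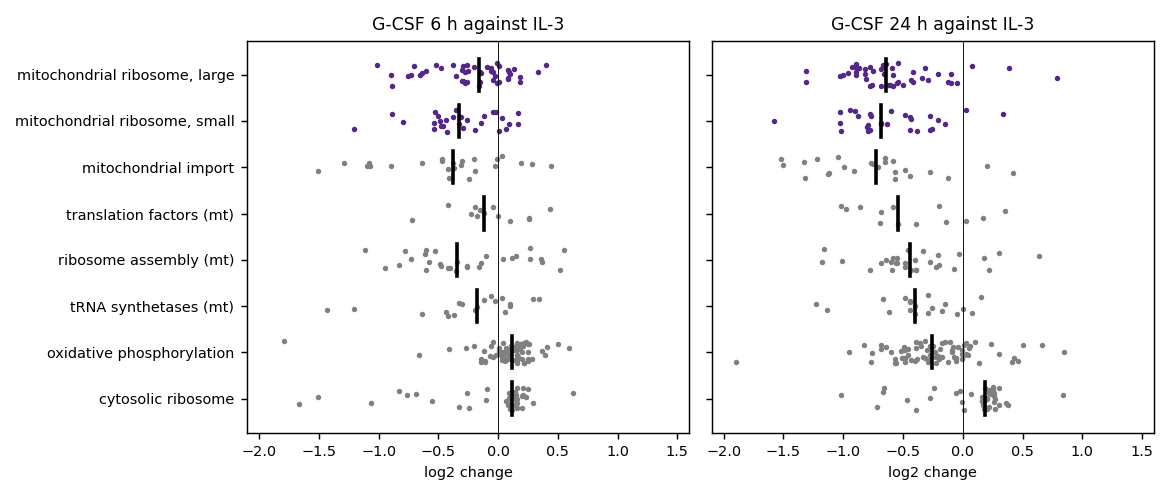
Log2 change against IL-3 after 6 h (left) and 24 h (right) of G-CSF (x axis) for the tested genes of each list (y axis), 1 point per gene with random vertical spread and a black bar at the median, the members in purple and other lists in grey; points beyond -2.1 or 1.6 are not drawn. At 24 h the medians are -0.64 and -0.68 for the subunits, -0.73 for import, -0.25 for oxidative phosphorylation and 0.19 for the cytosolic ribosome.

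Of 15 regulators, 2 fell (13.3%) and 3 rose (20%) at 24 h, against 11.8% lower and 14.6% higher among all genes. Myc stood at 0.69, -1.25, -0.64 and 0.32 in mock and at 0.85, -1.07, -0.32 and 0.54 in ASXL1-MT, so that it was lowest at 2 h in both cultures. Its changes were -1.93 ± 0.09 at 2 h (adjusted p = 0.0653, not called), -1.25 ± 0.09 at 6 h (adjusted p = 0.0124) and -0.34 ± 0.09 at 24 h (adjusted p = 0.0543, not called), and it rose by 0.91 from 6 to 24 h (adjusted p = 0.0321). Its partner Max gave -0.49, -0.91 and -0.52, each ± 0.24 and none called. Mxd1, which competes with MYC for MAX, rose by 2.21 ± 0.12 at 6 h (adjusted p = 0.0124) and by 3.47 ± 0.12 at 24 h (adjusted p = 0.00524).

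Pprc1, a coactivator that works with NRF1, fell by 1.19 ± 0.08 at 6 h (adjusted p = 0.0124) and by 0.60 ± 0.08 at 24 h (adjusted p = 0.0131). Nrf1 itself gave 0.07 ± 0.34 (adjusted p = 0.903) and the GABP subunit Gabpa -0.21 ± 0.13 (adjusted p = 0.327) at 24 h. Ppargc1a was called lower, at -3.13 ± 0.72 (adjusted p = 0.0453), on 1 of several probe sets, and the mean of these turned the direction to 0.67.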

How the data were processed

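The 8 RNA samples were hybridised to 8 Affymetrix mouse arrays. MAS 5.0 captured the intensities, per the labels; the submitters' processing notes also list RMA, without a version. The values deposited by the authors are read as log2 levels centred on each probe set's median, since every such median lay within 5.0e-07 of 0. How the values were centred and scaled, and on which log base, is not given in the sources used here. The design text names an array with fewer probe sets than the table's 45037, and gives another amount of RNA than the protocol.

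Levels before centring were estimated from the rounding step of the numbers, which tells only broad bands of level apart. Among bright probe sets the estimate tended to be higher where the lowest array was lower. In 8000 simulated probe sets the median absolute error was 0.742, and 84.8% were placed on the right side of the table's median level. The filter itself, which uses the second-highest array, was not simulated. A single gene symbol was annotated for 34945 probe sets, several for 932 and none for 9160. Estimated levels were rounded to a whole unit, and a gene was represented by its probe set of highest rounded level; ties, frequent among bright probe sets, were settled by probe set type (the more specific first), then by name. The 12986 genes whose second-highest array reached the table's median level of 6.23 were tested. This estimate and the tie rule departed from the planned filter because the table is centred.

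Genes were fitted with limma 3.58.1 in R 4.3.3 (lmFit, eBayes), additively on time point and vector (3 residual degrees of freedom, prior 1.15), or with an added indicator of ASXL1-MT at 24 h (2, prior 1.14). The fit was also run on simulated data with independent normal noise and additive changes. Such data meet the assumptions of the fit, so they cannot show whether the cultures serve as replicates. The text names the largest changes of each comparison past the threshold (or, where none passed, the largest values), a fixed set of members and regulators, and the extremes of each list; further members were named after their values were seen. The members and all lists were chosen with earlier results of these data known. The labels give no batch. Promoters, neighbours and motifs come from RefSeq tables of GRCm38.p6, matched by symbol.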

Additional observations from a re-analysis of the deposited data

How the results depend on the processing

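The median change of the members at 24 h kept its direction under every alternative run. The numbers of members called did not hold as well. The setting with the probe set of highest unrounded level favoured deeper falls by its construction. Lower and higher members at 24 h were 51 and 2 as reported, 35 and 1 when the probe sets of a gene were averaged, 57 and 2 with the probe set of highest unrounded level (an alternative chosen after seeing the data), 32 and 0 without the filter on dim genes, 62 and 2 with the stricter filter, 57 and 2 with arrays centred on their medians, 50 and 1 after quantile normalization, 2 and 0 with every probe set fitted on its own (82 of 156 probe sets were lower and 7 higher at an unadjusted p under 0.05), and 0 and 0 from the 4 arrays of IL-3 and 24 h alone (48 lower and 1 higher at an unadjusted p under 0.05). At 6 h they were 20 and 1 as reported, 10 and 0 with the mean, 18 and 1 with the unrounded level, 3 and 0 without the filter, 33 and 1 with the stricter filter, 22 and 0 with centred arrays, 25 and 0 after quantile normalization, and 0 and 0 for single probe sets and for 4 arrays (21 lower and 1 higher unadjusted). From 6 to 24 h they were 10 and 0 as reported, 41 and 1 with the stricter filter, 11 and 0 with the unrounded level, 12 and 0 with centred arrays, and 0 and 0 with the mean, without the filter, after quantile normalization and for single probe sets. Leaving out 1 array in turn gave 0 to 38 lower and 0 higher at 24 h (median -0.67 to -0.61), 0 to 3 lower and 0 higher at 6 h (median -0.26 to -0.21) and 0 from 6 to 24 h (median -0.40 to -0.32). At 2 h and between the vectors no setting called a member in limma; at an unadjusted p under 0.05 the fits per gene gave up to 3.

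Over all genes the split of lower and higher calls moved with the scaling. It was 1530 and 1891 at 24 h as deposited, 1761 and 1668 with centred arrays and 1540 and 1230 after quantile normalization, and at 6 h 939 and 1260, 1059 and 972, and 1184 and 982. Among the genes named by rule, the directions that turned were those of Mrps31 between the vectors (0.49 with the mean of probe sets), Mrpl33 at 2 h (-0.58 with the mean, and -0.03 to 0.41 with 1 array left out, the lowest without mock in IL-3), Mrps14 at 2 h (-0.13 to 0.56, the lowest without mock at 2 h), Nrf1 at 24 h (-0.04 after quantile normalization, -0.42 to 0.56 with 1 array left out, the lowest without mock in IL-3, and -0.27 without mock at 24 h) Ppargc1a at 24 h (0.67 with the mean), and, with the unrounded level, Mrps25 between the vectors (to a value that rounds to -0.00) and Eral1 at 24 h (-0.41, called). Of these, Ppargc1a and Eral1 were called as reported. Over all 76 members, the mean of probe sets also turned the called falls of Mrpl17 (0.03), Mrpl42 (0.19), Mrpl21 (0.52) and Mrpl54 (0.24) at 24 h, and those of Mrpl42 and Mrpl47 from 6 to 24 h; no other setting fitted per gene turned a called member at 6 or 24 h or between them. Beyond the settings' own construction (other genes tested, fewer arrays), the causes were not tested. The vector difference at 24 h has no fit without either 24 h array. No paired analysis was possible because each condition has 1 array, so that a replicate number could not serve as a block; the reported fit itself pairs the arrays by culture, through its vector term. Dim probe sets varied more, with a median SD over the 8 arrays of 1.34 at an estimated level under 4, 0.72 from 4 to 8 and 0.26 at 8 or more.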

Other observations

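Many mitochondrial ribosomal protein genes start next to another gene that runs the opposite way. With a limit of 1000 bases between the starts, 25 of 67 members (37.3%) had such a neighbour, against 1951 of 10445 genes (18.7%). Of the neighbours, 22 were tested, of which 2 are members themselves, Mrps11 and Mrpl46. Of the other 20, 3 fell (Ptcd2, Tcp1 and Psma2) and 3 rose at 24 h, where 11.8% of all genes were lower and 14.6% higher. Mrps11 and Mrpl46 start 42 bases apart on chromosome 7, and fell by 0.78 ± 0.15 (adjusted p = 0.0292) and 0.67 ± 0.16 (adjusted p = 0.0486 in limma). Mrps27 fell beside Ptcd2 (-0.91 ± 0.10, adjusted p = 0.0107), and Mrpl18 (-0.62 ± 0.08) beside Tcp1, a subunit of the cytosolic chaperonin (-0.61 ± 0.10, adjusted p = 0.0241).

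In a pair of cases the members fell and the neighbours rose. Mrpl2 fell by 0.67 ± 0.08 (adjusted p = 0.0121), while Klc4, a kinesin light chain that starts 141 bases away, rose by 0.87 ± 0.13 (adjusted p = 0.0184). Mrpl41 fell by 0.50 ± 0.09 (adjusted p = 0.0272) beside Pnpla7, which rose by 2.07 ± 0.17 (adjusted p = 0.00737). Mrpl51, which was not called, gave -0.05 ± 0.08 beside Ncapd2, a condensin subunit, which rose by 0.72 ± 0.09 (adjusted p = 0.0135). The members lie on 17 chromosomes, and 24 overlap another annotated gene. Probe sequences were not at hand, so which gene of such a pair a probe set reads was not checked.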
